A study of Drosophila melanogaster with 14 samples.

Results

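Recurrent insertion loci of single flies were set against a pool of embryos from which Piwi had not been depleted. Insertions of transposable elements (TEs) that are absent from the reference genome had been called in 12 single flies after somatic Piwi depletion and in 1 no-KD pool. Records of the same TE family separated by at most 500 bp were joined into loci over these 13 libraries. A locus was kept when at least 2 of the 12 flies held it. The members were thus chosen by the measured calls themselves, so the number of flies per locus is given as a description. Of 4118 loci, 1480 were recurrent. Of these, 1129 held a no-KD record and 351 did not, which is 23.7% (Wilson 95% interval 21.6 to 25.9). A further 1666 loci were seen in the no-KD pool and in no fly, and 972 were seen in 1 fly and left out.

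Every library came from animals that carried tj-GAL4 together with tubP-GAL80[ts] and sh-piwi in a w background. In this line tj-GAL4 drives a hairpin against piwi in the somatic follicle cells of the ovary, and the temperature-sensitive repressor GAL80 holds it back in the cold. The control animals therefore carry the hairpin too. The no-KD pool was made from 3 to 17 h embryos of flies grown at 20°C and was read at 100 nt. The 12 flies were adults labelled piwi-sKD, with 25°C during the last 5 days, and were read at 125 nt. The methods of the study place them in the second generation after the shift, so the shift would apply to their ancestors. A piwi-sKD pool, also read at 100 nt, played no part in the choice of loci and was used as a separate readout. Its label names adult flies at 25°C, whereas the methods describe embryos. Pools and flies were extracted, prepared and sequenced by different kits and at different sites, so a difference between animals and a difference between preparations cannot be told apart here. With 1 library, the no-KD pool has no replicate, and every share below describes these libraries and not the conditions.

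Piwi is a nuclear Argonaute protein. Guided by piRNAs, it silences TEs at the level of transcription, and in follicle cells the piRNAs come largely from the flamenco locus on the X chromosome. Endogenous retroviruses (ERVs, here all LTR retrotransposons) and non-LTR retrotransposons move through an RNA copy, whereas DNA transposons, with Helitron-like elements counted among them here, move without an RNA intermediate. An insertion that is carried by the line before any depletion can appear in several flies and in the control. The comparison asks which recurrent loci had such a counterpart in the control list and which did not.

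The fly lists held 537 to 1307 records with 1774 to 5901 supporting reads each, and the no-KD list held 4356 records with 38580 reads. A supporting read is a soft-clipped read or a pair with 1 mapped end, and the lowest support listed is 2 reads. A locus without a no-KD record was therefore not detected at this depth, which does not show that it was absent. All 1480 recurrent loci lay on the chromosome arms, the Y or the mitochondrial genome.

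Loci without a no-KD record were found in fewer flies than those with one. Among the 298 loci seen in 2 flies, just inside the rule, 154 had no no-KD record, or 51.7% (46.0 to 57.3). Just outside the rule, among the 972 loci of a single fly, this share was 72.7% (69.9 to 75.4). It was 32.6% at 3 flies, 23.2% at 4, 19.2% at 5 and 17.4% at 6 flies. At 12 flies it was 4.17% (1.63 to 10.2), or 4 of 96 loci. The values fell at each added fly from 2 to 10, and the intervals of neighbours overlapped from 3 flies on. The median locus was seen in 3 flies without and in 6 flies with a no-KD record. Of the 351 loci without a record, 77 were seen in 6 or more flies, and they came from 40 families.

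**Figure D1:**
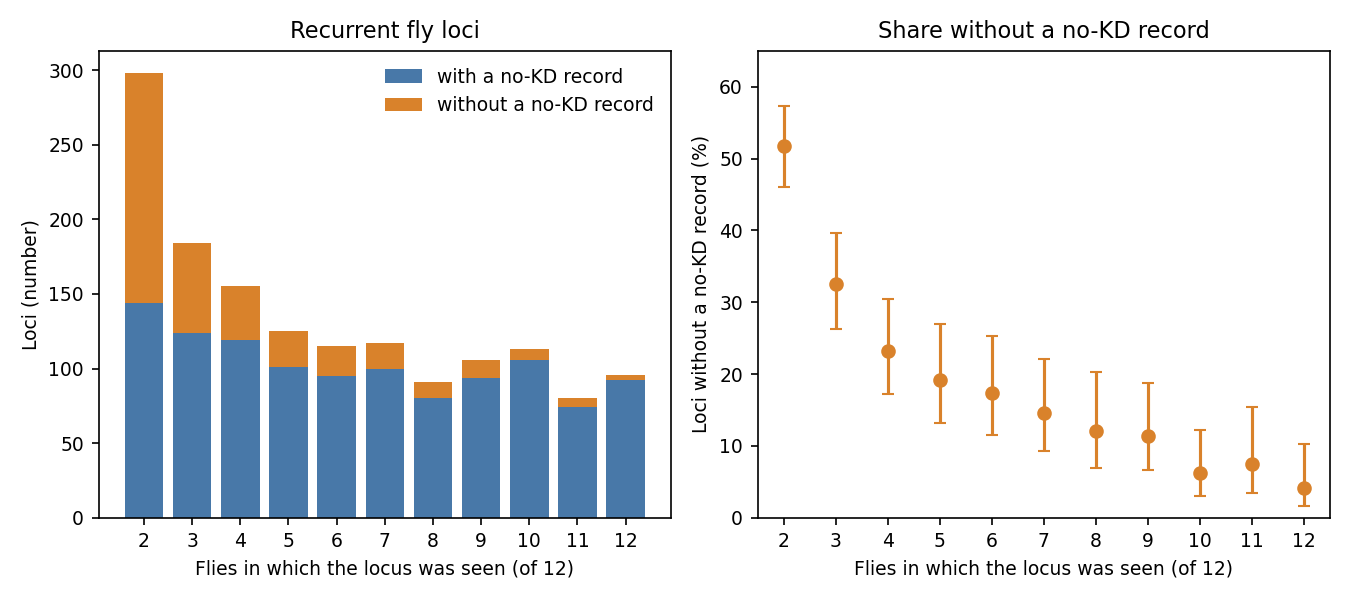
Left, number of recurrent loci by the number of flies that held them, split by the presence of a no-KD record. Right, percent of these loci without a no-KD record, with Wilson 95% intervals. The share goes from 51.7% of 298 loci at 2 flies to 4.17% of 96 loci at 12 flies.

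The share was of a similar size in each fly. A fly held 456 to 978 recurrent loci (median 731.5), of which 55 to 180 had no no-KD record. The share without a record was 15.6% ± 2.41 (SD, n = 12). It was lowest in fly 12 (12.1%) and highest in fly 10 (20.2%), which were the flies with the fewest reads. These per-fly shares are below the 23.7% over loci because a locus seen in many flies enters each of them.

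Loci with a no-KD record were also better supported within each fly. Support was summed over the records of a fly in a locus, at 1.12 records with and 1.02 without a no-KD record. The mean support of a locus in a fly was 4.65 ± 0.696 reads with a no-KD record and 3.00 ± 0.333 reads without one (SD, n = 12 flies). The means ranged from 3.67 to 6.16 reads with a record and from 2.47 to 3.66 without. The lowest mean with a record, in fly 10, was just above the highest mean without one, in fly 5, so the means of the groups did not overlap. The difference was 1.65 ± 0.428 reads (SD, n = 12, from 1.03 to 2.50) and was above 0 in 12 of 12 flies (exact sign-flip permutation test, two-sided, p = 0.000488, the smallest that 4096 sign flips can give). The flies share loci, so this p speaks for the set of loci present here and not for independent insertions. With the best supported record in place of the sum, the difference was 1.27 ± 0.338 reads, above 0 in 12 of 12 flies. With only loci of the same number of flies compared, the difference was 0.514 ± 0.258 reads, again above 0 in 12 of 12 flies. The size of the difference also rested on the joining of records, at 0.341, 0.513 and 0.913 reads with gaps of 0, 20 and 100 bp.

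Support at the minimum showed the same contrast. In a fly, 57.8% ± 8.39 of the loci without a no-KD record had 2 reads, against 35.9% ± 5.94 of those with one (SD, n = 12). Over all flies together, 132 of 351 loci without a record (37.6%) never exceeded 2 reads in any fly, against 135 of 1129 (12%) with a record. At least 5 reads in some fly were seen for 82 loci without (23.4%, 19.2 to 28.1) and for 630 loci with a record (55.8%, 52.9 to 58.7). At least 10 reads were seen for 11 and 164 loci. The contrast was small for loci of 2 flies, at 2.28 reads per fly without and 2.40 with a record. It was larger for loci of 6 to 12 flies, at 3.8 and 5.36 reads.

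**Figure D2:**
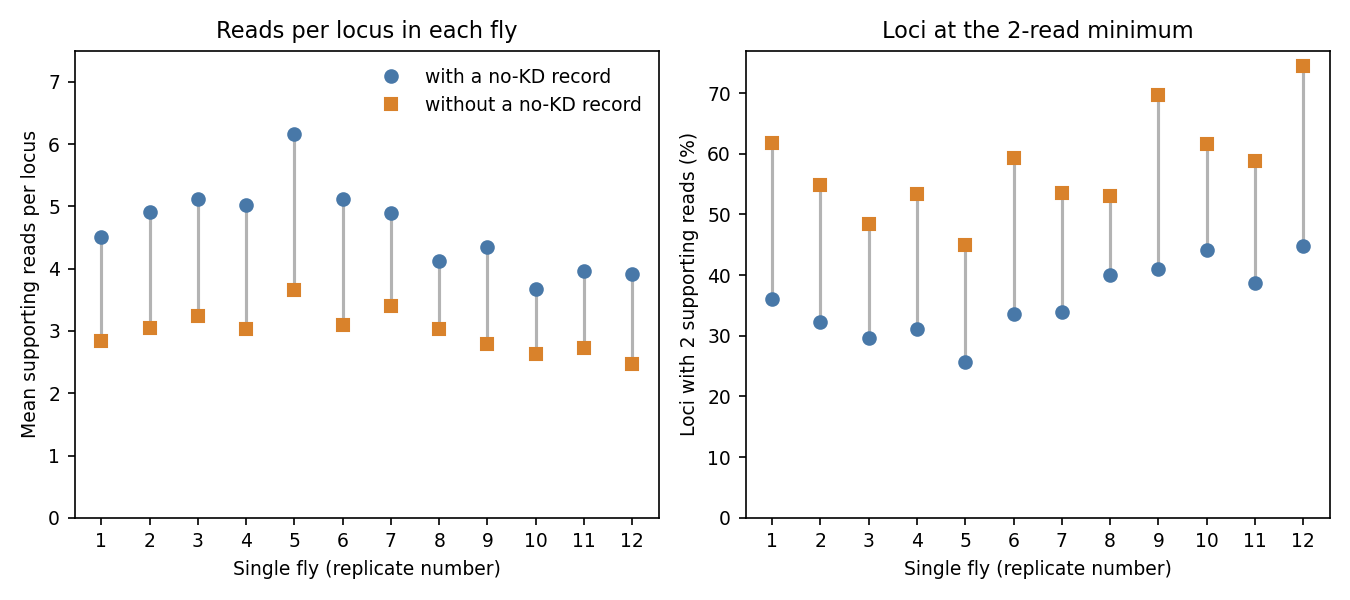
Mean supporting reads per recurrent locus (left) and percent of recurrent loci at the 2-read minimum (right) in each of the 12 flies, for loci with (circles) and without (squares) a no-KD record. Grey lines join the values of a fly. The means with a record are higher in 12 of 12 flies, by 1.03 to 2.50 reads.

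In the no-KD pool itself, the loci it shared with several flies were well covered. Their median support was 17 reads (quartiles 8 and 29), and 73 of the 1129 (6.47%) were at 2 reads. Loci that the no-KD list shared with no fly had a median of 3 reads, and 49.8% of these 1666 were at 2 reads. The median rose from 9 reads for loci of 2 flies to 38.5 reads for loci of 12 flies, of which the lowest had 3 reads. Among the 641 loci with a record in 6 to 12 flies, 17 (2.65%) were at 2 no-KD reads. Loci frequent among the flies were thus mostly far above the support minimum of the no-KD list when they were listed in it.

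The piwi-sKD pool gave a readout that the choice of loci had not used. However, it shared read length and BWA version with the no-KD pool, and the flies differed in both. A likeness between the pools and a trait of the loci therefore cannot be told apart in the values and the test below. The piwi-sKD pool held a record at 1096 of the 1129 loci with a no-KD record, or 97.1% (95.9 to 97.9). Of the 351 loci without a no-KD record it held 83, or 23.6% (19.5 to 28.4). By a two-sided Fisher's exact test the odds ratio was 0.00932 (0.00593 to 0.0145) with p = 4.39e-178. With gaps of 0 and 20 bp it was 0.0333 and 0.0301. Thus 268 recurrent loci were in neither pool, 83 were in the piwi-sKD pool alone and 33 in the no-KD pool alone. Of the loci in 1 pool only, 71.6% were in the piwi-sKD pool (exact 95% interval 62.4 to 79.5). Its list was larger, with 5096 records and 47733 reads, and the part of that size difference in the 83 and 33 loci was not tested. The study reports a higher coverage for the piwi-sKD pool than for the no-KD pool, and it subsampled the former for its own comparison.

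By class, loci in the piwi-sKD pool alone and in the no-KD pool alone numbered 20 and 8 for ERVs, 44 and 13 for non-LTR elements, and 19 and 12 for DNA elements. The share held by the piwi-sKD pool was 71.4%, 77.2% and 61.3%, with intervals that overlapped. Among loci of 6 to 12 flies, 26 of 77 without a no-KD record (33.8%, 24.2 to 44.9) were in the piwi-sKD pool. Of the 4 loci that were seen in all 12 flies and not in the no-KD pool, 0 were in the piwi-sKD pool.

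**Figure D3:**
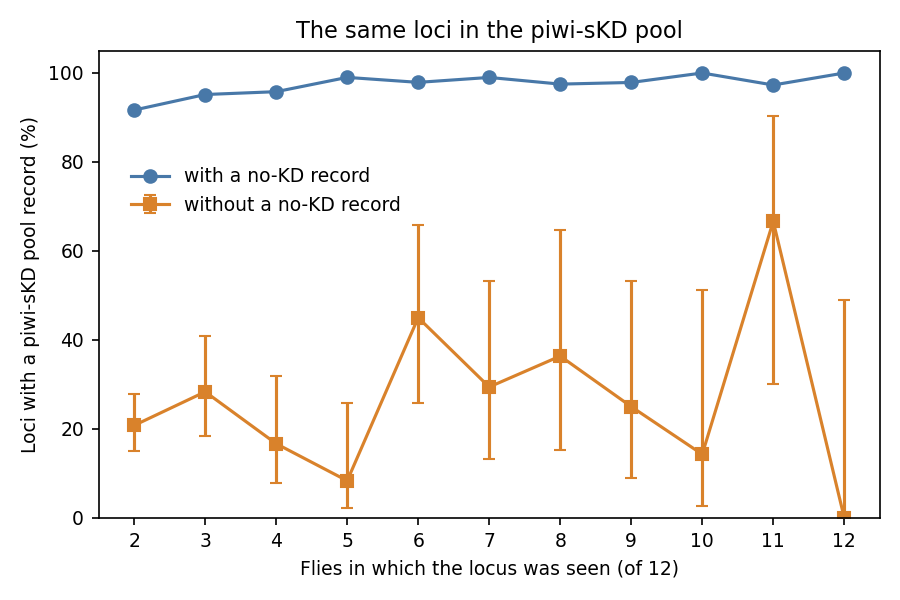
Percent of recurrent loci that also had a record in the piwi-sKD pool, by the number of flies that held the locus. Loci with a no-KD record (circles) lie between 91.7% and 100%, and loci without one (squares, Wilson 95% intervals) between 0% and 66.7%, the latter on 4 of 6 loci at 11 flies.

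A no-KD record was missing less often for ERVs than for the other classes. ERVs, the class that Piwi silences in follicle cells, had 112 loci without and 465 with a record, so 19.4% (16.4 to 22.8) were without. For non-LTR elements the counts were 145 and 414, or 25.9% (22.5 to 29.7), and for DNA elements 94 and 250, or 27.3% (22.9 to 32.3). The odds of ERVs among loci without a record were 0.669 (0.514 to 0.868) of those among loci with a record (Fisher's exact test, two-sided, adjusted p = 0.00634 by Benjamini-Hochberg over 3 classes). Non-LTR elements, with an odds ratio of 1.22 (adjusted p = 0.130), and DNA elements, with 1.29 (adjusted p = 0.124), did not pass. Of the 3 classes, 1 was called as less often without a record (33.3%) and 0 as more often (0%).

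The lower ERV share was seen in each range of fly counts. ERVs made up 36.4% of loci without and 43.8% of loci with a record at 2 flies, 32.5% and 49.1% at 3 to 5 flies, and 22.1% and 36.3% at 6 to 12 flies. Within the flies, ERVs made up 27.3% ± 4.13 of the recurrent loci without and 38.0% ± 1.69 of those with a record (SD, n = 12). Between 10 and 12 flies, 1 of 17 loci without a record was an ERV, against 82 of 272 with one.

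Recurrent loci belonged to 111 families, of which 64 had at least 5 loci and were tested. A no-KD record was missing more often for 3 families (4.69% of those tested) and less often for 2 (3.12%), each against all other families (two-sided Fisher's exact test with Benjamini-Hochberg adjustment). Before adjustment 9 families had a p under 0.05. The median share without a record over the 42 families with 10 or more loci was 21.3% (quartiles 13.8 and 33.3). At 3 or more flies per locus, or with fly records of 3 or more reads, 0 families passed. With a gap of 20 bp, the window of the study's methods, 0 of these 5 passed and roo, an LTR retrotransposon, was called in their place, and with 0 bp pogo and roo were called. Of the 5, 1 (Doc2-element) remained without fly 3, 2 without fly 6, and 3 without fly 1, 7 or 9.

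INE-1, an old and abundant Helitron-like element of the heterochromatin and the fourth chromosome, had 20 loci without and 21 with a no-KD record (48.8%, odds ratio 3.19, adjusted p = 0.0216). Its loci without a record were seen in 2 to 9 flies (median 3.5), and those with a record in a median of 9 flies. The most frequent was chrX:19192386-19192411 in CG7914, in 9 flies with 26 reads in all. It was followed by chr3R:4606375-4606488, outside genes, in 9 flies with 23 reads. Its odds ratio was 1.17, 1.82 and 2.14 with gaps of 0, 20 and 100 bp, and none of these passed. From the number of flies alone, 9.84 INE-1 loci without a record would be taken from the shares over all loci, a description added after the values were seen.

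BS, a non-LTR element of the jockey group, had 16 loci without and 15 with a record (51.6%, odds ratio 3.55, adjusted p = 0.0216). These 16 loci were in 2 to 5 flies with at most 5 reads in any fly, and 9 of them had 2 reads in every fly. The 15 with a record were in a median of 10 flies with up to 27 reads. The best supported locus without a record was chr3R:21125743-21125748 in slmb, which encodes an F-box protein, in 5 flies with 13 reads. The number of flies alone would give 9.24 BS loci without a record. Outside the rule, BS had 146 loci in the no-KD pool and in no fly. A further 64 BS loci were in a single fly, 2 of them with a no-KD record, against 265 of 972 over all families. Unshared BS calls were thus common in these lists as well. The odds ratio was 2.17 and 2.92 with gaps of 0 and 20 bp, where it did not pass.

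Doc2-element, another non-LTR element of that group, had 9 loci without and 5 with a record (64.3%, odds ratio 5.92, adjusted p = 0.0218). Of the 9 loci, 3 were on the Y chromosome and 6 in the proximal 5 Mb of an arm. The number of flies alone would give 4.47. The odds ratio was 1.56, 2.31 and 3.18 with gaps of 0, 20 and 100 bp, and none of these passed. The locus chrY:124449-124477 in kl-5, which encodes a dynein heavy chain of the sperm axoneme, was in 11 flies, and a second Doc2-element locus in kl-5 at chrY:132629-132642 was in 3 flies.

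In the other direction, pogo, a DNA transposon related to Tc1 and mariner, had 2 loci without and 43 with a record (4.44%, odds ratio 0.145, adjusted p = 0.0216). Its loci with a record had a median of 59 no-KD reads. The non-LTR element jockey had 8 loci without and 69 with a record (10.4%, odds ratio 0.358, adjusted p = 0.0458), and 57 of the 69 were in 6 or more flies. The number of flies alone would give 8.81 loci without a record for pogo and 11 for jockey. With a gap of 20 bp the odds ratios were 0.424 for pogo and 0.659 for jockey, and neither passed. jockey was reversed at 1.18 with 0 bp, and it no longer passed when any fly other than fly 12 was left out.

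**Figure D4:**
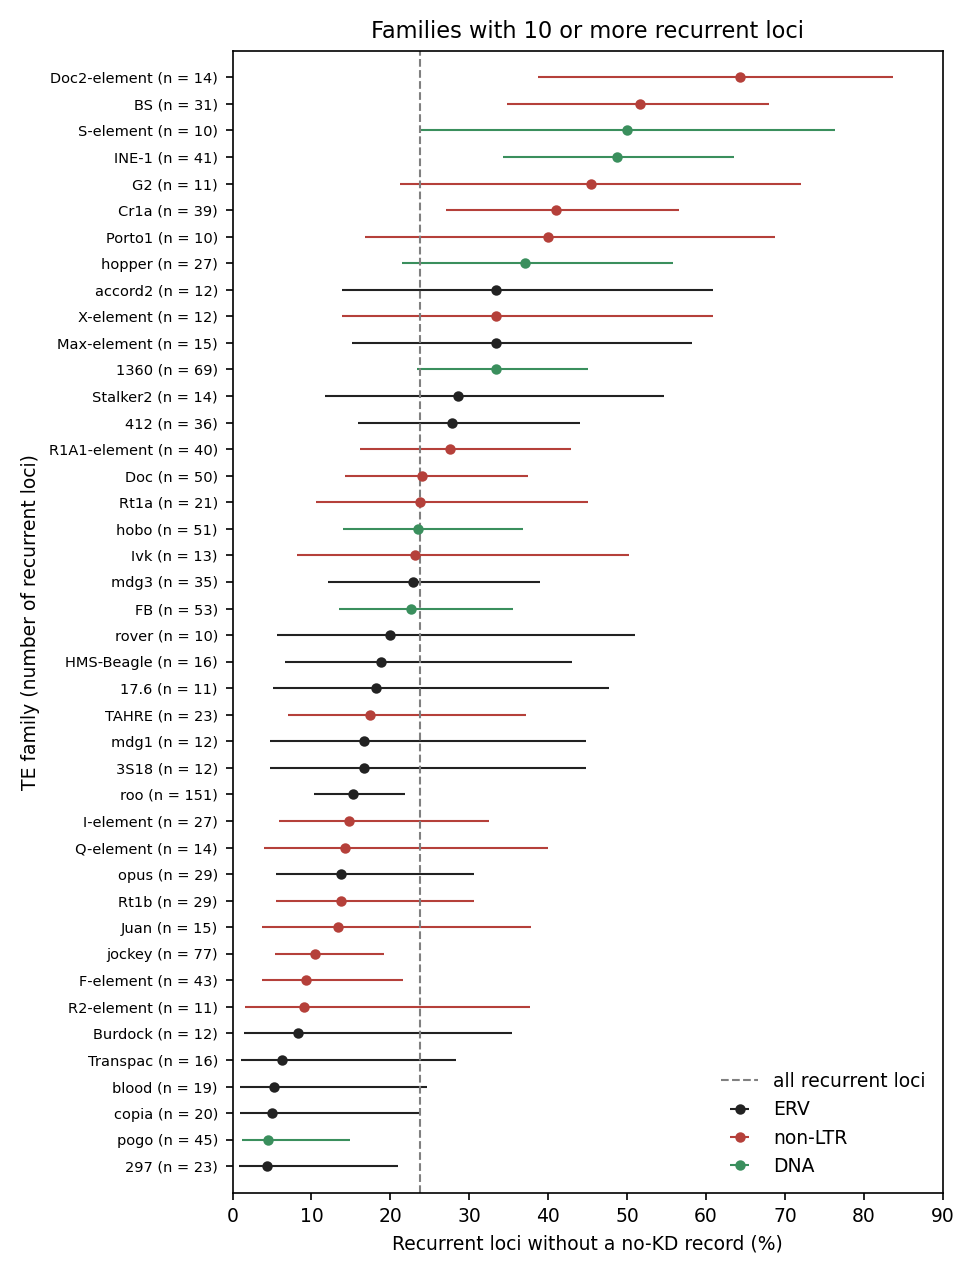
Percent of recurrent loci without a no-KD record for the 42 families with 10 or more recurrent loci, with Wilson 95% intervals. Colour gives the class, and the dashed line is the 23.7% over all recurrent loci. Doc2-element is highest at 64.3%, and the lowest value is 4.35%. Families listed by a number alone are plotted under it.

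The highest shares among families with 10 or more loci were those of Doc2-element, BS, S-element (50%, 5 of 10), INE-1 and G2 (45.5%, 5 of 11). S-element is a DNA transposon, and G2 is a non-LTR element. The lowest were those of Dm297 (4.35%, 1 of 23), which the lists give by the number alone, of pogo, copia (5%, 1 of 20), blood (5.26%, 1 of 19) and Transpac (6.25%, 1 of 16). Of these, Dm297, copia, blood and Transpac are LTR retrotransposons, and each had a single locus without a record, seen in 2 flies. Neither S-element, G2 nor these 4 families passed the test. All recurrent loci had a no-KD record in 21 families, among them the P-element with 6 of 6, and none had one in 8 families of 1 to 3 loci.

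The ERV families that the study followed as extrachromosomal circles, namely ZAM, gtwin, HMS-Beagle2 and Dm412 (again listed by its number), formed the next list. They had 40 recurrent loci. Of these 13 had no no-KD record, or 32.5% (20.1 to 48.0), beside the 23.7% over all loci, and 0 of 1 family tested passed. The study chose these families from the same experiment, so the list is not independent evidence. gtwin had 0 recurrent loci, with 2 loci in a single fly and 3 in the no-KD pool without a fly. HMS-Beagle2 had 0 as well, with 7 in a single fly and 20 in the no-KD pool without a fly.

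ZAM, a retrovirus-like element controlled by flamenco, had 4 recurrent loci, too few for the family test. At chr3L:24176116-24176128 in Snap25, which encodes a synaptic vesicle fusion protein, flies 1, 4, 6, 8 and 11 had 2 reads each and fly 3 had 3 reads. The no-KD pool had no record there, and the piwi-sKD pool had 3 reads. This ZAM locus was thus at or next to the support minimum in all 7 libraries that held it. The locus chr2R:145483-145520 had 2 reads each in flies 1 and 6 and no record in a pool. The locus chr2R:20176893-20176922 had 2 reads each in flies 3 and 8, none in the no-KD pool and 5 in the piwi-sKD pool. The remaining locus, chr2R:19841917-19842048, was present in both pools, with 29 no-KD and 40 piwi-sKD reads, and flies 3, 4, 5 and 12 had 7, 2, 5 and 2 reads. The study's PCR control was a ZAM insertion that it called fixed and found in every library. It is printed on chr2L, with a position number that lies inside this chr2R span. If it is the same insertion, the missing fly records are missed calls, which was not tested. The 3 ZAM loci without a no-KD record thus had no fly above 3 reads, and with fly records of 3 or more reads 0 of them remained recurrent.

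Dm412, an LTR retrotransposon of the gypsy superfamily, had 10 loci without and 26 with a no-KD record (27.8%, odds ratio 1.24, adjusted p = 0.986). Its direction was turned by narrower joining, by 3 or more flies per locus and without fly 2. None of the 10 loci was in the piwi-sKD pool, whereas 26 of 26 with a no-KD record were. The most frequent were chrX:303491-303491 in CG3777, in 9 flies with 23 reads, and chr3R:30375578-30375579, outside genes, in 7 flies with 19 reads. The other 8 were in 2 to 4 flies.

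A list of the families with the strongest piRNA loss in the study, and not of all that lost piRNAs, held Dm412, gtwin and ZAM, and further Tirant, Tabor, gypsy5 and gypsy10. Their 45 recurrent loci included 16 without a no-KD record (35.6%, 23.2 to 50.2), again with 0 of 1 family tested passing, and this list too was chosen on the same experiment. The families other than ZAM and Dm412 added few loci. Tabor had 1 locus in 2 flies with 4 reads, and gypsy10 had 1 in 5 flies with 12 reads at chr3L:23922540-23922540 in CG40470. gypsy5 had 1 locus without and 2 with a record, and Tirant had 0 loci of any kind.

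Elements with fixed target sites were near the background. The telomeric retrotransposons had 6 of 32 recurrent loci without a no-KD record (18.8%, 8.89 to 35.3). The R1 and R2 elements, which insert into ribosomal RNA genes, had 13 of 52 (25%, 15.2 to 38.2). In both lists 0 of 2 families tested passed.

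Of the 4 loci in all 12 flies without a no-KD record, the best supported was a G6 locus inside flamenco. G6 is a non-LTR element, and lncRNA:flam, at chrX:21631891-21790731, is the transcript that gives rise to the piRNAs of follicle cells. At chrX:21715506-21715778, flies 1 to 12 had 8, 22, 30, 17, 28, 13, 20, 13, 16, 5, 10 and 11 reads, and both pools had none. Every fly was thus above the support minimum, and the 193 reads in all are the highest among loci without a no-KD record in 12 flies. It was the 1 recurrent locus inside the flamenco span. Flies and pools differ in read length and preparation, so an insertion of the flies and a difference in calling cannot be told apart there. A second G6 locus, chrX:21954593-21954890, outside genes, was also in 12 flies with 2 to 14 reads each and 73 in all, and it had no G6 record in either pool. Both pools held an S-element record inside its span, with 6 no-KD and 4 piwi-sKD reads. The no-KD pool also held a record of G2, another non-LTR element, with 3 reads at 28 bp.

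The other loci in all 12 flies were DNA elements. FB, the foldback element, had 2 to 11 reads per fly at chrX:22354363-22354532, 62 in all. pogo had 2 to 7 reads per fly at chr3L:3051804-3051993, 42 in all. Neither locus was in a gene or had a pool record of its own family. Inside the span of the FB locus both pools held a record of another DNA element, listed by a number alone, with 20 no-KD and 12 piwi-sKD reads. The summed fly reads of the 4 loci without a record ranged from 42 to 193 (median 67.5), inside the range of the 92 loci with a record (39 to 697, median 97.5).

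The 6 loci in 11 flies each lacked fly 10 or fly 12, the flies with the lowest support. A G-element locus at chr2R:1097798-1097817 in rl, which encodes the MAP kinase ERK, had 72 fly reads, and FB at chrX:19502627-19502709 in CG14200 and Pfrx, a phosphofructokinase/bisphosphatase gene, had 69. The piwi-sKD pool held both, with 4 and 5 reads. The Doc2-element locus in kl-5 had 62 fly reads, from 2 to 14 per fly. FB at chr3R:2900016-2900025 in Pzl, a Piezo-like channel gene, had 50, and neither of these was in the piwi-sKD pool. Stalker, an LTR retrotransposon, at chr2R:3655827-3655827 had 45 fly reads, and the non-LTR Q-element at chr3R:8043837-8043852 in CG43060 had 37. Each of these had 2 reads in the piwi-sKD pool. Of the 10 most frequent loci, 6 had no record of their family in either pool and 4 had a piwi-sKD pool record of 2 to 5 reads. A no-KD record of another family lay within 500 bp of 4 of the 10, which would count as loci with a record if any family were accepted. Besides the second G6 and the FB locus above, these were the G-element locus, with an F-element record of 11 no-KD reads at 173 bp, and the Stalker locus, with a Tabor record of 2 no-KD reads at 111 bp. The G6 locus in flamenco was among the 6 that had none. Whether such neighbouring records mark the same insertion was not tested. At the G-element locus the piwi-sKD pool held F-element records, the largest with 15 reads, beside its G-element record of 4 reads.

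The 5 loci of 12 flies with most no-KD reads belonged to R1A1-element, which inserts into ribosomal RNA genes, and to the P-element, a DNA transposon. R1A1-element at chrX:23535186-23535355 had 1075 no-KD and 1291 piwi-sKD pool reads, against 137 reads over the flies. The P-element at chr3R:29806754-29807277, at the border of the kinesin gene ncd and of ca, had 315 no-KD reads and 371 fly reads, with 11 to 59 per fly. R1A1-element at chrX:23217029-23217531 had 266 no-KD and 598 fly reads. The P-element at chr2L:19463940-19464214 had 235 and 274, and R1A1-element at chrX:22372761-22373622 had 215 and 149. These loci were above the minimum in each fly, with 3 reads as the lowest value of a fly at any of the 5. The lists give the family name alone, and whether a P-element record came from a transgene of the line was not tested.

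**Figure D5:**
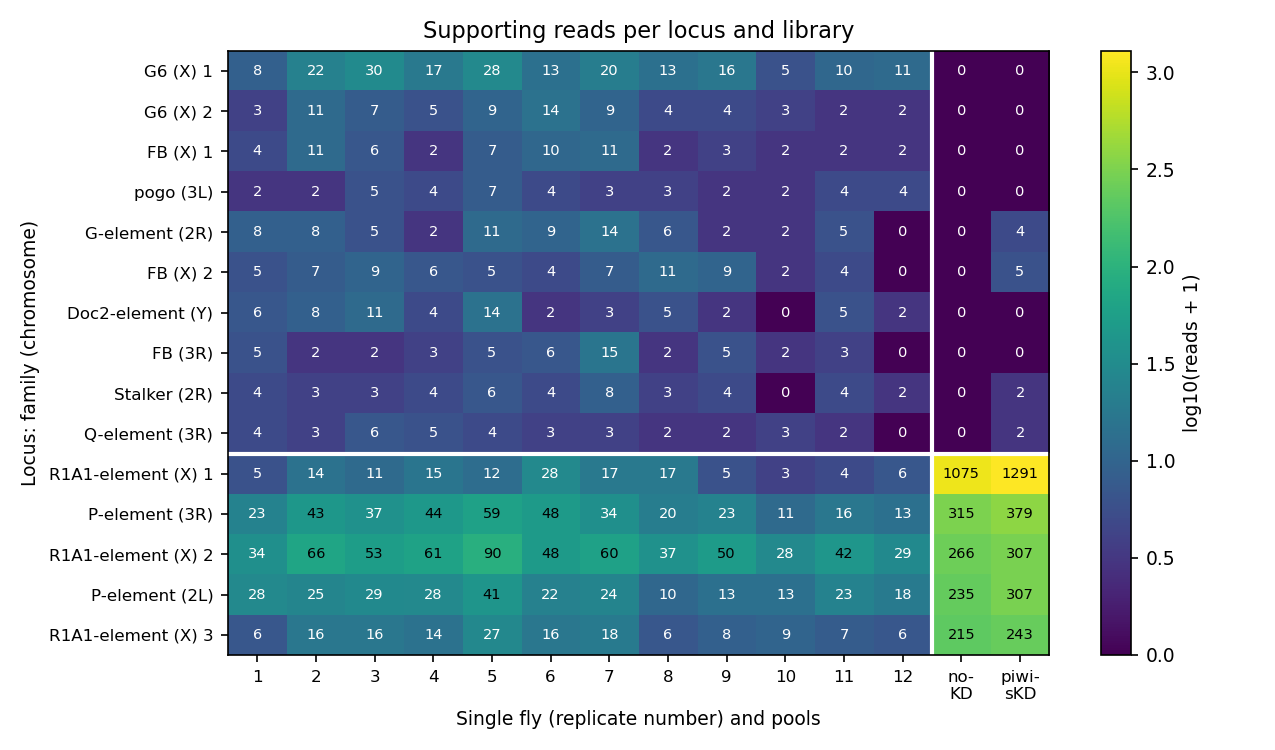
Supporting reads in the 12 flies, the no-KD pool and the piwi-sKD pool for the 10 loci without a no-KD record that were seen in most flies (above the white line) and for the 5 loci of 12 flies with most no-KD reads (below it). Colour is log10(reads + 1) and the printed numbers are reads, with 0 where a list has no record. The G6 locus in flamenco, in the top row, has 5 to 30 reads per fly and 0 in both pools.

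No chromosome passed the test with records joined over 500 bp. Of 8 chromosomes, 0 were called as more often (0%) and 0 as less often (0%) without a no-KD record (two-sided Fisher's exact test with Benjamini-Hochberg adjustment), and 2 had an unadjusted p under 0.05. On 2L, 42 of 234 loci had no record (17.9%, adjusted p = 0.0950), and on 2R 75 of 249 (30.1%, adjusted p = 0.0897). Other settings called 2L and X (20 bp gap), 2L, X and Y (100 bp), and 2L and 2R (1000 bp, or no-KD records of 3 or more reads). The share was 21.6% on 3L, 22.9% on 3R, 19.6% on the fourth chromosome and 26.3% on X. On the Y, 9 of 27 loci had no no-KD record (33.3%, 18.6 to 52.2), and 0 of these 9 were in the piwi-sKD pool, whereas 18 of the other 18 were. Each fly held 7 to 14 of the Y loci, and the sex of the flies is not given in the sources used here.

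Loci without a no-KD record lay more often near the centromeres, a description made after the values were seen and not tested. Of those on the 5 large arms, 179 of 333 were in the proximal 5 Mb (53.8%, 48.4 to 59.0), against 338 of 1072 with a record (31.5%, 28.8 to 34.4). Put the other way, 34.6% of proximal and 17.3% of other loci lacked a record. The share in the proximal part was 56.9% on 2R and 32.1% on 2L, against 20.7% and 10% on the rest of these arms. On X it was 28.0% and 25.1%, with overlapping intervals. The excess was present in each class, at 29.8% and 14.9% for ERVs, 33.6% and 19.9% for non-LTR elements, and 43.6% and 18.4% for DNA elements. Of the 77 loci in 6 or more flies without a record, here with those of the Y and the fourth chromosome, 48 were proximal. The like count for loci with a record was not taken.

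Gene spans, from start to end of a gene with introns included, held 180 of 351 loci without (51.3%, 46.1 to 56.5) and 649 of 1127 loci with a no-KD record (57.6%, 54.7 to 60.4), leaving out the mitochondrial genome. The odds ratio was 0.775 (0.605 to 0.993), with p = 0.0421 by a two-sided Fisher's exact test. The call was lost without fly 2, 3, 7, 9 or 10, with 3 or more flies per locus, and when a no-KD record of any family counted.

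How records were matched set the size of the groups. With a gap of 0 or 20 bp in place of 500 bp, the share of recurrent loci with a no-KD record was 28.1% or 53.5% in place of 76.3%. Joining the fly lists alone and then looking for a no-KD record of the family within 500 bp again left 351 loci without one. Of these 351, 62 (17.7%) had a no-KD record of another family within 500 bp, and 15 (4.27%) had one of their own family beyond that gap but within 1000 bp. The median span of a locus was 25 bp without and 199 bp with a no-KD record. The no-KD records count in the span, and loci with one were also seen in more flies, with more records per fly. The part of each in the span was not tested. A piwi-sKD pool record was sought up to 500 bp beyond the span, so over a longer stretch at wider loci.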

How the data were processed

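Genomic DNA of 14 libraries was sequenced as paired ends. The authors mapped reads to dm6 with BWA (0.7.5a-r405 for the pools, 0.7.10-r789 for the flies) and called insertions with T-lex de novo. For the flies and the piwi-sKD pool, the deposited support is a count of reads per insertion. In the no-KD list the authors deposited a scaled signal in place of reads. 100% of its 4356 values were whole multiples of 1.23 (tolerance 0.01 reads), a factor read from the values and not stated, and they were divided by it. Whether coordinates count from 0 or 1 is not given in the sources used here.

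Groups came from the library titles. The 12 flies are single animals, and the spread between them is that between flies of this line. Loci were joined, and classes assigned by hand from family names. Class, family (5 or more loci), chromosome, piwi-sKD pool and gene-span shares were compared by Fisher's exact test (two-sided) at 0.05, with Benjamini-Hochberg adjustment within the first 3, and reads per locus within a fly by an exact sign-flip test over flies. An odds ratio above 1 means more often without a no-KD record. Shares have Wilson 95% intervals unless called exact. The intervals and Fisher's tests count loci as if they were independent. They take in counting error alone, and neither the relatedness of the flies nor the lack of a no-KD replicate. RefSeq (Release 6 of the assembly) gave the gene spans.

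Members and lists were chosen with earlier results of these data known. Named families were the study's circle and piRNA-loss families, those past the threshold, and the 5 highest and 5 lowest shares among families with 10 or more loci. Named loci were the 10 without a no-KD record in most flies, the 5 of 12 flies with most no-KD reads, and every ZAM and gtwin locus. Further loci of called families are the most frequent of each. Alternatives were gaps of 0, 20, 100 and 1000 bp, 3 or more flies, other matching of no-KD records, supports of 3 or more reads, chromosome arms only, loci up to 1000 bp, family minimums of 1 and 20 loci, other summaries of reads, and each fly left out. The best-record summary, the position along the arm and the expectation from fly counts were added after the values were seen. The analysis ran in Python 3.11.15 with scipy 1.17.1, pandas 2.3.3 and numpy 2.4.6, and figures were drawn with matplotlib 3.10.9.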

Additional observations from a re-analysis of the deposited data

How the results depend on the processing

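The within-fly difference in reads, the share in the piwi-sKD pool and the ERV odds ratio kept their direction and their side of the threshold under every alternative run. Their sizes moved with the gap. With 0, 20 and 100 bp the difference was 0.341, 0.513 and 0.913 reads, and with 0 and 20 bp the pool odds ratio was 0.0333 and 0.0301. Leaving out each fly gave ranges of 1.55 to 1.70 reads, of 0.00798 to 0.00968 for the pool odds ratio and of 0.637 to 0.678 for ERVs. The share of recurrent loci with a no-KD record, 76.3%, was 28.1%, 53.5% and 67.7% with gaps of 0, 20 and 100 bp, 83.3% with 3 or more flies, 80.5% with no-KD records of any family, 86.0% with fly records and 70.1% with no-KD records of 3 or more reads, and 76.5 to 78.4% without each fly. The number of family calls, 5, was 2 with a gap of 0 bp (pogo and roo, 1 of them among the 5), 1 with 20 bp (roo, so 0 of the 5), 0 with 3 or more flies or with fly records of 3 or more reads, 3 with no-KD records of any family or with chromosome arms only, and 9 with no-KD records of 3 or more reads. Without each fly they were 1 to 5. Chromosome calls went from 0 to 2, 3 and 2 with gaps of 20, 100 and 1000 bp and to 2 with no-KD records of 3 or more reads, and were 0 without each fly. The non-LTR odds ratio passed at 1.84, 1.57 and 1.49 with gaps of 0, 20 and 100 bp (1.16 to 1.29 without each fly). That of DNA elements was reversed at 0.951 with a gap of 0 bp and passed at 1.45 with any family, at 1.58 and 1.40 with fly and no-KD records of 3 or more reads, and at 1.37 without fly 7 (1.23 to 1.37 without each fly). The gene-span odds ratio did not pass at 0.755 (3 or more flies) and 0.95 (any family), and was 0.727 to 0.808 without each fly. Reversed odds ratios were those of Dm412 (0.527 and 0.779 with gaps of 0 and 20 bp, 0.830 with 3 or more flies, 0.901 without fly 2, and 0.901 to 1.33 without each fly), copia (1.11) and jockey (1.18) with a gap of 0 bp, and Dm297 (1.15) with 20 bp. Fewer loci and records enter with 3 or more flies or reads, and otherwise the cause was not tested. No paired analysis was possible because the no-KD pool is 1 library and the replicate numbers are shared by no other group. The depth of the lists limits every missing record to "not detected at 2 reads".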

Other observations

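Several families outside those named by rule, chosen after their values were seen, had several loci in 6 or more flies without a no-KD record. Over all families these were 77 of 718 loci (10.7%). Cr1a, a non-LTR element, and FB had 5 such loci each, and R1A1-element and hobo, a DNA transposon, had 4 each. With a record, Cr1a had 11 loci in 6 or more flies, FB 25 and hobo 29. Of all recurrent loci, 22.6% of FB, 23.5% of hobo and 27.5% of R1A1-element lacked a record, near the 23.7% over all families. Cr1a had 16 recurrent loci without and 23 with a record (41.0%, adjusted p = 0.183 by Fisher's exact test). In the proximal 5 Mb lay 12 of the 16 and 17 of the 23, so Cr1a loci were mostly proximal in both groups. For hobo, 0 of 12 loci without a record and 39 of 39 with one were in the piwi-sKD pool. The LTR retrotransposon roo, with the most recurrent loci of any family (151), had 23 without a record (15.2%, adjusted p = 0.0918), against 36.1 from the number of flies alone. roo did pass with gaps of 0, 20 and 100 bp and with no-KD records of 3 or more reads. Helena, a non-LTR element, had 3 recurrent loci, all without a record, in 2 to 10 flies.

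The 154 loci in 2 flies without a no-KD record were spread over 53 of the 66 pairs of flies, with at most 8 in a pair (flies 3 and 5). They numbered 7 (fly 12) to 49 (fly 5) per fly, and 87 of them involved fly 3 or fly 5, the flies with the longest lists. The 144 loci of 2 flies with a no-KD record also filled 53 pairs, and 66 of them involved these flies. Of the recurrent loci of a fly, 38.4% to 84.0% were seen in any other fly.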
